A study of Mus musculus with 8 samples.

Results

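The genes described are 9 members of the Tgf-beta pathway, the ligands Tgfb1, Tgfb2 and Tgfb3, the receptors Tgfbr1, Tgfbr2 and Tgfbr3, the signal carrier Smad3, the ligand-storage protein Ltbp1 and the matrix protein Tgfbi. They were chosen by symbol: every probe set whose platform annotation names 1 of them was taken, which gave 25 of 45101 probe sets. Of these 25, 22 passed the filter on low values, and all 9 genes kept at least 1 probe set among the 16115 genes tested. RNA came from lung mesenchyme, the connective tissue around the growing airways, of CD1 mouse embryos at e11.5 to e12.5, and was measured on 8 arrays in 4 groups of 2. Wnt1 culture was stalk mesenchyme kept for 12 h on tissue culture plastic in growth medium with 400 ng/ml of the secreted protein Wnt1, and control culture was stalk mesenchyme kept for 12 h in growth medium alone. Tip mesenchyme, taken around the branch ends, and stalk mesenchyme, taken around the airway proximal to them, were lysed directly after dissection. No transgene or mutation is named in the labels. They also do not say how many embryos or litters went into an array, so a p-value here reflects how far these arrays scatter, and that scatter may be technical.

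Tgf-beta ligands are secreted in an inactive complex that Ltbp1 and related proteins hold in the matrix, and integrins, proteases and thrombospondin release them. A released ligand binds the kinase receptor Tgfbr2, helped by the co-receptor Tgfbr3 (betaglycan), and Tgfbr2 activates Tgfbr1. Tgfbr1 phosphorylates Smad2 and Smad3, which enter the nucleus with Smad4 and change transcription, of Tgfbi among other genes. In the embryonic lung the pathway is known for restraining branching and for its part in smooth muscle and matrix formation.

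The arrays differed between cultured and fresh tissue in ways that touch every comparison across that line. All arrays had the same trimmed mean, but the median signal was 149 to 298 on the 4 cultured arrays and 76.2 to 99.4 on the 4 fresh arrays. The ratio of the 3' to the 5' probe set of Actb, a measure of how complete the amplified RNA is, was 6.81 to 24.4 on cultured and 2.02 to 4.52 on fresh arrays. That of Gapdh was 9.73 to 17.8 on cultured and 3.10 to 5.87 on fresh arrays. The spiked control BioB, added in a fixed amount, read 5945 to 26272 on cultured and 1008 to 2458 on fresh arrays. Culture and these array differences cannot be told apart. All 9 mesenchyme markers were above their own array's median on 8 of 8 arrays. Of the 8 airway epithelium markers, Cdh1, Foxa2 and Nkx2-1 were below it on all 4 fresh arrays, while Epcam, Krt8 and Krt18 were above it on 8 of 8 arrays, so the tissue label was met by its own markers but epithelial ones were also measured. Krt8 and Krt18 are also known from mesothelium. In such bulk samples, fewer cells of a type and less RNA per cell cannot be told apart.

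The promoters of 5 of the 6 genes that passed the test in control culture against stalk are shown, so that the start regions of genes that fell (Tgfbr1, Tgfbr2, Tgfbi and Smad3) can be read beside that of Tgfb1, which rose. Windows of 7 of the 9 genes were in the RefSeq promoter table (assembly GRCm38.p6), and none was used for Tgfb3 and Tgfbr3. Each runs 5' to 3' on the gene's strand, from 250 bases before the annotated start to 50 after it, and capitals mark every match to the motifs named below.
Tgfbr1 (chr4:47352972-47353271, plus strand): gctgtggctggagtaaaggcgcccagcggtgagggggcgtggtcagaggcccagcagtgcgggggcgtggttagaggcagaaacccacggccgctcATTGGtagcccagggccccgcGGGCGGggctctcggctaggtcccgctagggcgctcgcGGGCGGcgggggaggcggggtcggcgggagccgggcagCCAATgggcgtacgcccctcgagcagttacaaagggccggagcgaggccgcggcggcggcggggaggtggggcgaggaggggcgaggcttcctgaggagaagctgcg
Tgfbr2 (chr9:116175314-116175613, minus strand): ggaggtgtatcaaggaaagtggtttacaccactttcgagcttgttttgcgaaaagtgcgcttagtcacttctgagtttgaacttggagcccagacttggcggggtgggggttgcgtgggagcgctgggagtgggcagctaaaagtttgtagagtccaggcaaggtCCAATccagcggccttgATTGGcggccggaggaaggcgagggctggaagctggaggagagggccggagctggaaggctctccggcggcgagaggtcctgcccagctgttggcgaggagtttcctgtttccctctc
Tgfbi (chr13:56609336-56609635, plus strand): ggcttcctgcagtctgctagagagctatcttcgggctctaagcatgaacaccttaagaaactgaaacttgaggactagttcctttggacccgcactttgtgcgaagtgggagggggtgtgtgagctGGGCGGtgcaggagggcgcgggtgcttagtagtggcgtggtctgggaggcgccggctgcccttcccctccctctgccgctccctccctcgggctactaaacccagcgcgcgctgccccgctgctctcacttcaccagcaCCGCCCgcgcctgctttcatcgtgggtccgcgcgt
Smad3 (chr9:63757945-63758244, minus strand): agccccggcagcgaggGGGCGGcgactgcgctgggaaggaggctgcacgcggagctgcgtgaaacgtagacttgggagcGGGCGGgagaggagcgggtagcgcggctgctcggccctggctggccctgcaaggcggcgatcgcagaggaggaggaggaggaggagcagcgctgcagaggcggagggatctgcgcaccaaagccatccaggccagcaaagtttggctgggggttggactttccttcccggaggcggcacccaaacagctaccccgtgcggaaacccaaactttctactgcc
Tgfb1 (chr7:25686752-25687051, plus strand): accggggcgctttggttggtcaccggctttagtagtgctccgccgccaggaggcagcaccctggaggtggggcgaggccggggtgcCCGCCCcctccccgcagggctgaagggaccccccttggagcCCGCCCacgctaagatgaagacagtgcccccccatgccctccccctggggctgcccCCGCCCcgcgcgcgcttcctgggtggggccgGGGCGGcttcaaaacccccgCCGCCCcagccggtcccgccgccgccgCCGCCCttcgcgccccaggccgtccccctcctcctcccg
The 7 motifs were searched on both strands. The GC box (GGGCGG), bound by Sp1-type factors, was present in 35.7% of 32851 promoter windows of the same length, the CCAAT box (CCAAT) in 37.4% and the TATA box (TATAAA) in 13.6%. Tgfb1 held 6 GC boxes, and Tgfbr1, Tgfbi and Smad3 held 2 each. Tgfbr2 held no GC box and 2 CCAAT boxes, 1 on each strand, and Tgfbr1 held 2 CCAAT boxes besides its GC boxes. The Tgfb1 window was 77.0% G and C, Tgfbr1 74.7%, Smad3 67.7%, Tgfbi 63.3% and Tgfbr2 59.0%, where the median of all windows was 52.7%. None of the 5 windows held the AP-1 site (TGANTCA, in 7.81% of windows), the cAMP response element (TGACGTCA, 1.79%), the Smad CAGA box (CCAGACA, 6.2%), or the Tcf/Lef site (CTTTGAT, 3.73%). A second window of Tgfbr1 (chr4:47385966-47386265, plus strand), not shown, held 0 GC boxes and 1 CCAAT box and was 52.0% G and C. These are matches of letters in 300 bases and say nothing of whether a factor binds.

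On the brightest probe set of each gene, Tgfbr1, Tgfbr3, Smad3 and Tgfbi fell in both cultures against fresh stalk, Tgfbr2 fell in control culture, and Tgfb1 was the 1 gene of the 9 that rose, in control culture. In control culture against stalk, 6 of 9 genes passed the test (limma, adjusted p under 0.05), 1 higher and 5 lower, where 26.4% of all genes tested passed, 17.1% higher and 9.26% lower. Against the same stalk arrays, 4 of 9 passed in Wnt1 culture, all 4 lower, where 16.2% of all genes passed, 9.35% higher and 6.88% lower. The arrays of control culture and stalk did not overlap for 7 of 9 genes, 1 higher and 6 lower (71.5% of all genes, 46.1% higher and 25.4% lower), and those of Wnt1 culture and stalk for 8 of 9, 2 higher and 6 lower (66.9%, 41.5% and 25.5%). In tip against stalk and in Wnt1 culture against control culture, 0 of 9 passed, where 0% of all genes passed. At an unadjusted p under 0.05 limma gave 91 and 1297 of 16115 genes, and its smallest adjusted p was 0.99992 and 0.11. The 2 arrays of a group correlated across genes at 0.97 in tip and in stalk, 0.82 in control culture and 0.83 in Wnt1 culture. As the fit shares 1 spread over all 8 arrays, the errors of tip against stalk take in culture scatter and may be too wide. The errors between the 2 cultures take in the closer fresh arrays and may be too narrow. A fit of tip and stalk alone also gave 0 genes. With all kept probe sets of a gene averaged, Tgfbr1, Tgfbr3 and Tgfbi passed in Wnt1 culture, and Tgfb1 and Tgfbi in control culture. The median log2 fold change of the 9 genes was -1.62 in control culture against stalk, where that of all genes was 0.45. It was -0.92 in Wnt1 culture against stalk, where that of all genes was 0.35. The probe sets used for all of the 9 but Tgfb1 were above their own array's median on at least 7 of 8 arrays. Over all such probe sets the median was -0.08 in control culture and -0.10 in Wnt1 culture, a nearer background than all genes. Leaving out either stalk array left 0 of the 9 past the threshold in control culture and 2 (Tgfbr3 and Tgfbi) in Wnt1 culture, although no fold change of the 6 genes turned its direction.

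**Figure D1:**
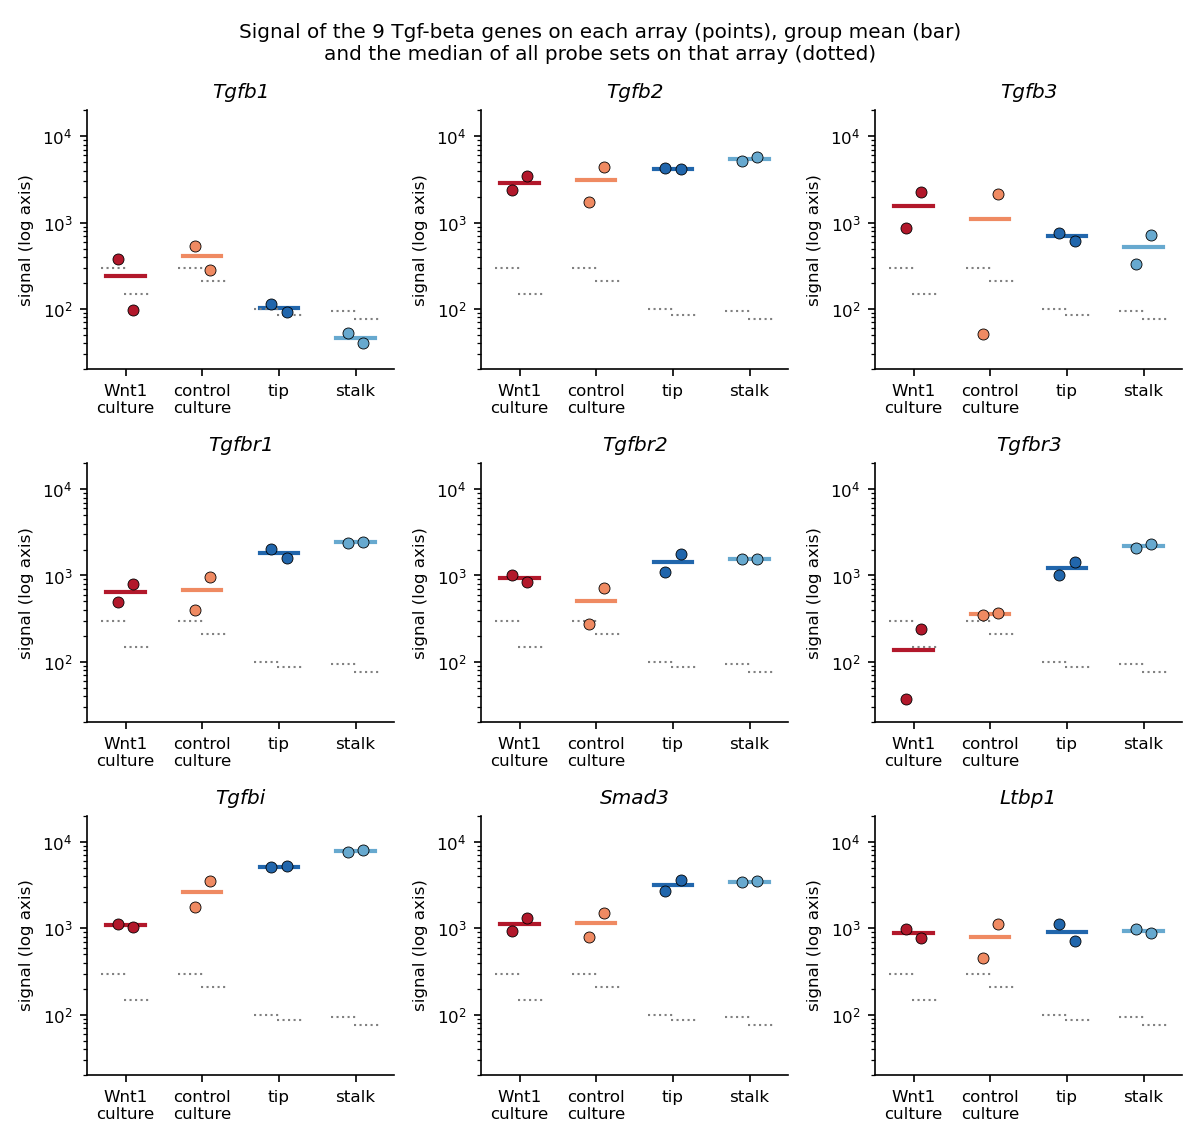
Signal of the 9 genes on each of the 8 arrays (1 point per array, log axis), with the mean of each group of 2 (bar) and the median of all probe sets on the same array (dotted line). Tgfbr1, Tgfbr2, Tgfbr3, Tgfbi and Smad3 sit lower on all 4 cultured arrays than on all 4 fresh arrays, and the control culture arrays of Tgfb3 lie at 50.9 and 2158.

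**Figure D2:**
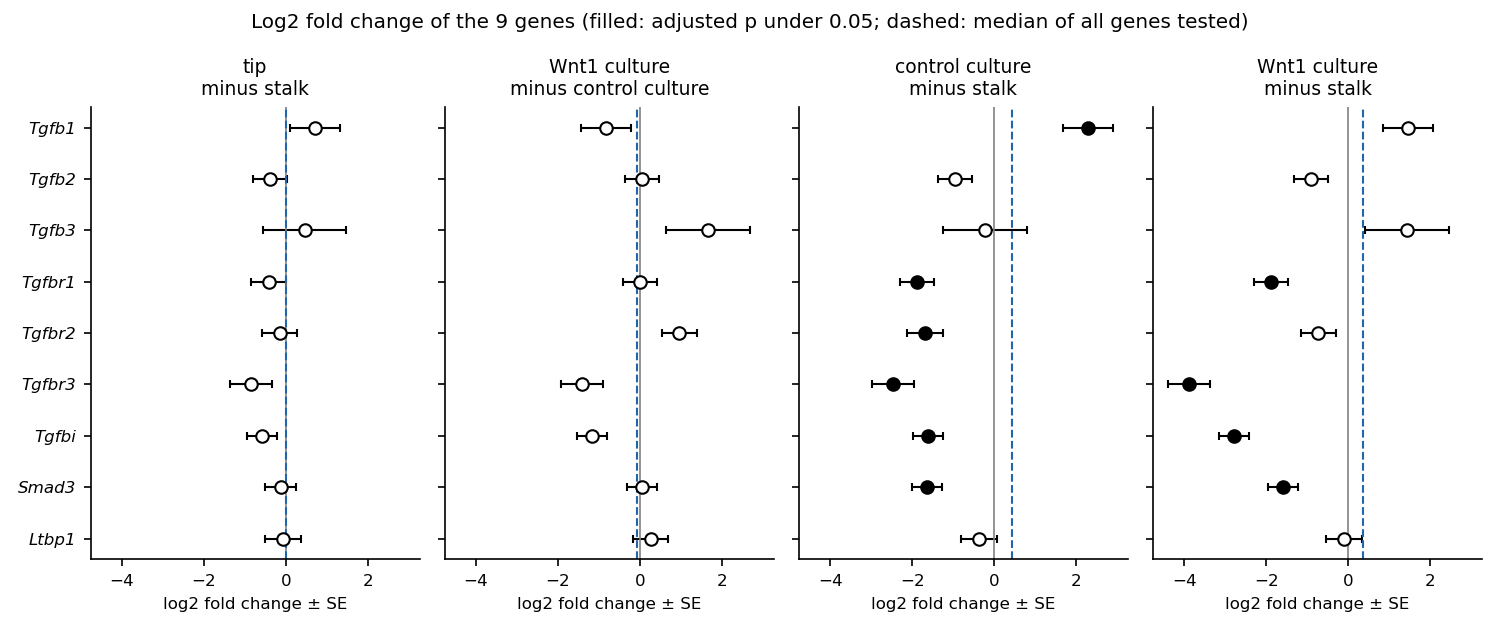
Log2 fold change of each of the 9 genes with its standard error (horizontal axis) in the 4 comparisons, filled where the adjusted p was under 0.05, with the median of all genes tested as a dashed line. Filled points are found in the culture against stalk panels, 6 in control culture and 4 in Wnt1 culture.

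Tgfb2, a ligand needed for normal development of several organs, was well above the array median on all 8 arrays. Its signal was 2404 and 3421 in Wnt1 culture, 1753 and 4433 in control culture, 4271 and 4123 in tip, and 5220 and 5726 in stalk. Both stalk arrays were above both tip arrays and all 4 cultured arrays, while the 2 cultures overlapped. The log2 fold change was -0.92 ± 0.41 (SE) in Wnt1 culture and -0.96 ± 0.41 in control culture against stalk (limma, adjusted p = 0.13 and 0.097), and -0.38 ± 0.41 in tip against stalk (adjusted p = 0.99992). A second probe set of Tgfb2, 1423250_a_at, fell in control culture, with 559 and 863 there against 2328 and 1666 in stalk (log2 fold change -1.45 ± 0.35, limma over all probe sets, adjusted p = 0.020). A further one, 1450922_a_at, gave 517 and 715 in control culture against 554 and 790 in stalk. The dim 1438303_at was at 0.41 in Wnt1 culture and -0.17 in control culture against stalk (limma over all probe sets, adjusted p = 0.72 and 0.88). The probe sets of Tgfb2 thus disagree on the size of the difference, and in Wnt1 culture on its direction. In tip against stalk 1423250_a_at and 1450922_a_at gave 0.06 and -0.07 with overlapping arrays, and 1438303_at gave -0.30 without overlap.

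Tgfb1, the ligand for which the family is named, was dim in fresh mesenchyme. Its signal was 383 and 96.9 in Wnt1 culture, 540 and 285 in control culture, 113 and 91.4 in tip and 52.0 and 40.02 in stalk. Both control culture arrays were above all 4 fresh arrays, the Wnt1 culture arrays overlapped tip, and both tip arrays were above both stalk arrays. The gene rose in control culture against stalk (log2 fold change 2.29 ± 0.61, adjusted p = 0.022, limma), and the difference in Wnt1 culture was 1.45 ± 0.61 (adjusted p = 0.11). Of the 4 fresh arrays 1 exceeded the filter value of 96.4, so the gene entered the test through cultured arrays, where it is high. The stalk values lie below the array medians of 76.2 to 99.4 on fresh arrays, and 1 of the 2 control culture values lies below the highest array median, 298. With each array centred on its median the change was 1.10 (adjusted p = 0.086), and with signals below 298 raised to that value it was 0.43 (adjusted p = 0.45), so the call ended under both. The other Tgfb1 probe set, 1420653_at, gave 237 and 292 in control culture against 74.5 and 53.4 in stalk (log2 fold change 1.52 ± 0.59, adjusted p = 0.081 over all probe sets). On that probe set the tip arrays, at 41.5 and 87.7, were not above those of stalk.

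Tgfb3 varied more between the arrays of a group than any other of the 9 genes. It had 857 and 2272 in Wnt1 culture, 50.9 and 2158 in control culture, 766 and 619 in tip and 335 and 709 in stalk. The control culture arrays spanned all other arrays but 1, and neighbouring groups overlapped throughout. Wnt1 culture was above stalk on both arrays, with a log2 fold change of 1.43 ± 1.02 (limma, adjusted p = 0.31). Against control culture it was 1.66 ± 1.02 (limma, adjusted p = 0.72). Leaving out control culture replicate 2 gave 3.93, while leaving out replicate 1 gave -0.61. The direction of Tgfb3 between the cultures thus depended on 1 array.

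Tgfbr1, the type I kinase that phosphorylates the Smads, had 487 and 787 in Wnt1 culture, 398 and 968 in control culture, 2016 and 1604 in tip and 2409 and 2439 in stalk. All 4 cultured arrays were below all 4 fresh arrays, and both tip arrays were below both stalk arrays. It fell in Wnt1 culture (log2 fold change -1.89 ± 0.42, limma, adjusted p = 0.016) and in control culture (-1.88 ± 0.42, adjusted p = 0.013) against stalk. The difference between the cultures was -0.01 ± 0.42 (limma, adjusted p = 0.998), which with 2 arrays each does not show that they were alike. Tip against stalk gave -0.42 ± 0.42 (adjusted p = 0.99992). A dim probe set of Tgfbr1, 1420894_at, went the other way in control culture. It had 23.3 and 12.0 in Wnt1 culture, 251 and 168 in control culture and 64.8 and 19.6 in stalk, with log2 fold changes of 1.59 in control culture against stalk (limma over all probe sets, adjusted p = 0.070) and -2.03 between the cultures (adjusted p = 0.53). With the 2 probe sets averaged Tgfbr1 was at -1.17 in Wnt1 culture (adjusted p = 0.047) and -0.15 in control culture (adjusted p = 0.76), so the control culture call ended.

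Tgfbr2, the type II receptor that binds ligand first, was higher in Wnt1 culture than in control culture on every array. It had 1007 and 840 in Wnt1 culture, 277 and 723 in control culture, 1089 and 1786 in tip and 1571 and 1544 in stalk. Both Wnt1 culture arrays were above both control culture arrays and below all fresh arrays. In control culture it fell against stalk (log2 fold change -1.69 ± 0.43, limma, adjusted p = 0.019), whereas in Wnt1 culture the value was -0.73 ± 0.43 (adjusted p = 0.23). The difference between the cultures was itself tested at 0.96 ± 0.43 with an adjusted p of 0.61, so it did not pass. Without both culture arrays numbered 1 (a setting added after seeing the data, with 1 array left in each culture) that difference was 0.20. A dim probe set of Tgfbr2, 1422019_at, had 148 and 110 in control culture against 32.1 and 18.1 in stalk (log2 fold change 1.32, limma over all probe sets, adjusted p = 0.13). Averaging the probe sets gave -0.18 in control culture against stalk (adjusted p = 0.71), which ended the call.

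Tgfbr3, the co-receptor that presents ligand to the others, had the most negative fold change of the 9 in both cultures. It had 36.9 and 237 in Wnt1 culture, 353 and 368 in control culture, 1006 and 1426 in tip and 2093 and 2286 in stalk. The 4 groups did not overlap, with stalk highest, then tip, control culture and Wnt1 culture. It fell in Wnt1 culture (log2 fold change -3.89 ± 0.51, limma, adjusted p = 0.0018) and in control culture (-2.46 ± 0.51, adjusted p = 0.010) against stalk. The Wnt1 culture value of 36.9 lies far below that array's median of 295, so the size of its fold change is uncertain, and without that array the value was -2.99. Wnt1 culture against control culture gave -1.42 ± 0.51 (limma, adjusted p = 0.55), and tip against stalk gave -0.85 ± 0.51 (adjusted p = 0.99992). A dim probe set of Tgfbr3, 1425620_at, was above 0 against stalk, at 0.71 in Wnt1 culture and 1.36 in control culture (limma over all probe sets, adjusted p = 0.57 and 0.25). The average of the probe sets was -1.59 in Wnt1 culture (adjusted p = 0.031) and -0.55 in control culture (adjusted p = 0.31), so the call was kept in Wnt1 culture alone.

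Smad3, the Smad through which Tgfbr1 signals, had 943 and 1335 in Wnt1 culture, 790 and 1496 in control culture, 2747 and 3681 in tip and 3432 and 3538 in stalk. All cultured arrays were below all fresh arrays, the cultures overlapped, and so did tip and stalk. It fell in Wnt1 culture (log2 fold change -1.60 ± 0.37, limma, adjusted p = 0.019) and in control culture (-1.64 ± 0.37, adjusted p = 0.013) against stalk. The differences were 0.04 ± 0.37 between the cultures and -0.13 ± 0.37 in tip against stalk, with adjusted p of 0.988 and 0.99992 (limma). A dim probe set of Smad3, 1450472_s_at, was at 0.87 in Wnt1 culture and 0.43 in control culture against stalk (limma over all probe sets, adjusted p = 0.36 and 0.64). With the probe sets averaged the values were -0.36 and -0.61 (adjusted p = 0.53 and 0.27), and both calls ended. The dim probe sets of Smad3 and the 3 receptors passed the filter through cultured arrays.

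Tgfbi, a secreted matrix protein named for its induction by Tgf-beta, was bright in fresh tissue and ordered the 4 groups without overlap. Its signal was 1127 and 1048 in Wnt1 culture, 1754 and 3588 in control culture, 5127 and 5254 in tip and 7578 and 8076 in stalk. It fell in Wnt1 culture (log2 fold change -2.80 ± 0.36, limma, adjusted p = 0.0018) and in control culture (-1.62 ± 0.36, adjusted p = 0.013) against stalk. In the comparison of cultures it was -1.18 ± 0.36 (adjusted p = 0.55), and in tip against stalk -0.59 ± 0.36 (adjusted p = 0.99992), so neither passed. All 4 probe sets of Tgfbi were lower in tip than in stalk with no overlap, at log2 fold changes of -0.87 to -0.43, and 3 of the 4 did not overlap between Wnt1 and control culture. They share 1 transcript and are not independent. Leaving both culture arrays numbered 1 out of the fit gave -1.73 between the cultures. That fit has 1 array in each culture, so it holds no measure of the scatter within them.

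Ltbp1, which anchors latent ligand in the matrix, showed no difference past the threshold on its brightest probe set. It had 991 and 767 in Wnt1 culture, 453 and 1134 in control culture, 1120 and 719 in tip and 994 and 894 in stalk, and all groups overlapped their neighbours. The probe sets of this gene disagree. On 1419786_at the signal was 686 and 224 in Wnt1 culture and 620 and 503 in control culture, against 43.7 and 14.9 in stalk. All 4 fresh arrays read below the filter value of 96.4 there, so it entered the test through the cultured arrays, where it is high. Its values were above stalk in Wnt1 culture (log2 fold change 2.62 ± 0.61, limma over all probe sets, adjusted p = 0.024) and in control culture (3.07 ± 0.61, adjusted p = 0.011). A further one, 1447547_at, had 12.6 and 7.08 in Wnt1 culture, 218 and 166 in control culture and 99.0 and 91.8 in stalk. With the mean of all its probe sets, Ltbp1 was 1.15 in control culture against stalk, against -0.37 on the brightest one.

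The bright probe sets of these genes lay below 0 in the cultures, and the dimmer ones were near the background of dim probe sets. Of the 25, 13 were above their own array's median on at least 7 of 8 arrays, from 8 genes (all but Tgfb1), and 12 were dimmer. In control culture against stalk, 13 of 13 bright ones were below 0 and 8 fell, while over all bright probe sets 53.2% were below 0 and 12.3% fell. Of the 9 dimmer ones that passed the filter, 8 were above 0 and 2 rose, over a background of 77.9% above 0 and 17.2% rising. For Wnt1 culture against stalk, 12 of 13 bright ones were below 0 and 7 fell (background 54.2% and 8.21%), with Tgfb3 the exception, and 7 of 9 dimmer ones were above 0 (background 75%). For a dim probe set that passed the filter through cultured arrays, the filter favoured higher values there, but did not force them in each culture. Against stalk, Tgfb2 1438303_at was at -0.17 in control culture and Tgfbr1 1420894_at at -0.44 in Wnt1 culture. The median signal of cultured arrays was higher as well. Several probe sets share a gene, so these counts are a description.

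**Figure D3:**
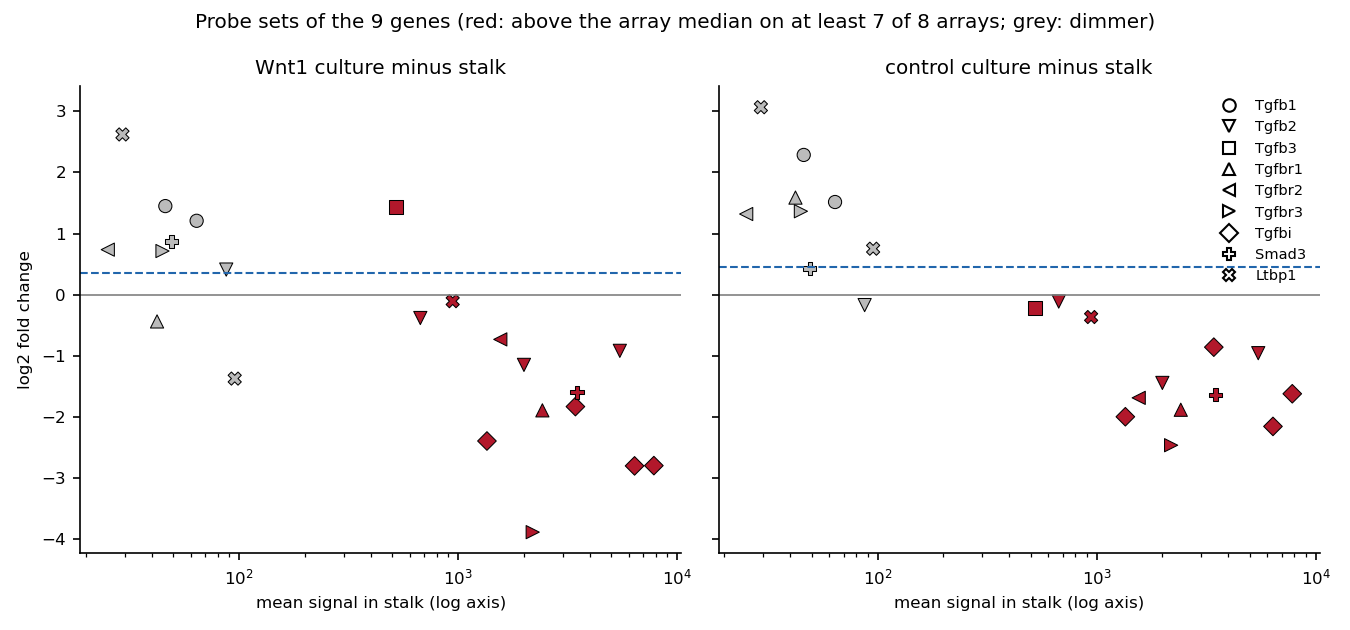
Log2 fold change against stalk of the 22 probe sets of the 9 genes that passed the filter (vertical axis), by their mean signal in stalk (log axis), in Wnt1 culture (left) and control culture (right). Red probe sets, above their array's median on at least 7 of 8 arrays, lie below 0 in all cases but Tgfb3 in Wnt1 culture. The dashed line is the median of all genes.

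In tip against stalk 7 of the 9 genes were below 0 and 0 passed the test. The median log2 fold change of the 9 was -0.15, where 48.7% of all genes were below 0 with a median of 0.01. Of the 7, Tgfbr2, Smad3 and Ltbp1 lay within their errors at -0.15, -0.13 and -0.07, and each was above 0 with 1 array left out. Lower values were not particular to these genes, as 31 of the 40 other pathway genes tested were below 0 and 9 above. On the brightest probe set of each gene, the arrays of tip and stalk did not overlap for 5 of 9 genes. Tgfb1 was higher in tip and Tgfb2, Tgfbr1, Tgfbr3 and Tgfbi were lower. Of all genes 34.4% did not overlap, 18.2% higher and 16.2% lower. Between the cultures 3 of 9 did not overlap, Tgfbr2 being higher in Wnt1 culture and Tgfbr3 and Tgfbi lower, where 26% of all genes did not, 10.1% higher and 15.9% lower. That share lies near the background and is no result about these genes.

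The tested genes most similar in pattern to each ligand over the 8 arrays were found by a distance, measured as the root mean square difference of log2 values centred on the gene's mean. For Tgfb2 they were Pkn3, Tent4b and Slc38a2, at 0.10 to 0.13. For Tgfb1 they were Vmn1r15, Nkapl and Muc13, at 0.13 to 0.17, and for Tgfb3 Emp2, Mfsd3 and Mrpl1, at 0.64 to 0.68. The ligand patterns themselves had a root mean square of 0.53 for Tgfb2, 0.97 for Tgfb1 and 1.37 for Tgfb3, so no gene came close to Tgfb3.

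The other pathway genes were taken from a list of 44, of which 40 were tested. In control culture against stalk 17 rose and 4 fell, in Wnt1 culture against stalk 11 rose and 2 fell, and in the remaining comparisons 0 passed. Over all genes 17.1% rose and 9.26% fell in control culture, and 9.35% and 6.88% in Wnt1 culture, so the numbers that fell are near the background. Their median log2 fold change was 0.21 in control culture and 0.22 in Wnt1 culture, where that of all genes was 0.45 and 0.35. The direction differed by role, with most targets above 0 in culture and the receptor partners and Smads mostly below.

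Among storage and activation genes, 6 of 11 rose in control culture, where 17.1% of all genes did, and 2 in Wnt1 culture, where 9.35% did. A count of 2 is no result about the group. Thbs1, thrombospondin 1, an activator of latent ligand, had 1527 and 448 in Wnt1 culture and 1174 and 723 in control culture, against 172 and 94.3 in stalk. It rose by 2.35 ± 0.56 (log2, limma, adjusted p = 0.020) in Wnt1 culture and by 2.48 ± 0.56 (adjusted p = 0.013) in control culture. Ltbp2, a matrix relative of Ltbp1, was higher in both (2.22 ± 0.61 and 2.55 ± 0.61, adjusted p = 0.033 and 0.016), but it read below the filter value of 96.4 on all 4 fresh arrays, so it entered the test through the cultured arrays and the size of its fold is uncertain. The integrin chain Itgb5 and Ltbp3 rose in control culture by 1.49 and 1.66 (adjusted p = 0.017 and 0.019). With probe sets averaged these became 0.59 and 0.70 (limma, adjusted p = 0.21 and 0.11), so both calls ended. The Thbs1 call in Wnt1 culture ended as well (1.13, limma, adjusted p = 0.061), while that in control culture was kept (1.74, adjusted p = 0.013). None of the 6 calls in control culture was kept with stalk replicate 1 or 2 left out or with the signal floor, and with arrays centred on their medians 0 rose and 2 fell.

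Among receptor partners and Smads, 2 of 8 fell in control culture, where 9.26% of all genes did, and 1 in Wnt1 culture, where 6.88% did. Counts this small are no result about the group. Smad2, the other Smad phosphorylated by Tgfbr1, had 422 and 480 in control culture against 1026 and 1140 in stalk (log2 fold change -1.19 ± 0.34, limma, adjusted p = 0.027). Smad4, the shared partner, had 2102 and 2242 in Wnt1 culture against 6004 and 5072 in stalk (-1.33 ± 0.40, adjusted p = 0.042). Tgfbrap1, a receptor-binding protein, gave -1.06 ± 0.36 in control culture (adjusted p = 0.048), but 0.059 with the mean of its probe sets. None of these 3 calls was kept with stalk replicate 1 or 2 left out. With arrays centred on their medians 3 of 8 fell in each culture. Smad4 was lower in Wnt1 culture than in control culture on both arrays, 2102 and 2242 against 3057 and 6728, without passing (-1.05 ± 0.40, limma, adjusted p = 0.56). Acvrl1, a type I receptor of endothelium, was at 1.42 ± 0.61 there (limma, adjusted p = 0.59), with 244 and 178 against 89.3 and 22.7. These control culture values lie below their array medians of 298 and 209, and with the signal floor the change was 0, so its size is uncertain.

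Inhibitors went both ways on the brightest probe set of each gene. Smurf2, a ubiquitin ligase that removes receptors and Smads, fell in Wnt1 culture (315 and 553 against 1238 and 1716 in stalk; log2 fold change -1.70 ± 0.40, limma, adjusted p = 0.020) and in control culture (-1.65 ± 0.40, adjusted p = 0.016). Pmepa1, a Smad-binding membrane protein induced by Tgf-beta, rose in both (1.37 ± 0.35 and 1.13 ± 0.35, adjusted p = 0.027 and 0.036). With arrays centred on their medians its control culture value was -0.055, so its direction depended on the scaling. In control culture the phosphatase Ppm1a also fell (-1.30 ± 0.35, adjusted p = 0.022), and Fmod, a matrix protein that binds the ligands, rose (1.59 ± 0.47, adjusted p = 0.030). The remaining 7 of 11 in control culture and 9 of 11 in Wnt1 culture did not pass. Over all genes 26.4% passed in control culture and 16.2% in Wnt1 culture, so these small counts are no result about the group. With stalk replicate 1 or 2 left out, or with the signal floor, no inhibitor passed in either culture. With arrays centred on their medians 0 rose in either culture, and 4 fell in Wnt1 culture and 5 in control culture. With the probe sets of a gene averaged, 0 inhibitors passed in Wnt1 culture, and 3 rose and 0 fell in control culture. Smurf2 was then at -0.57 in both Wnt1 and control culture (limma, adjusted p = 0.17 and 0.15). Ppm1a was at -0.49 in control culture (limma, adjusted p = 0.26).

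Of the 10 target genes tested, 9 rose in control culture, where 17.1% of all genes did, and 8 in Wnt1 culture, where 9.35% did. Tagln, an actin-binding protein of smooth muscle, had 13439 and 41328 in Wnt1 culture and 12300 and 9306 in control culture, against 189 and 232 in stalk. It rose by 6.54 ± 0.45 in Wnt1 culture and 5.40 ± 0.45 in control culture (log2, limma, adjusted p = 4.9e-05 and 2.6e-04). Acta2, smooth muscle actin, had 122878 and 107622 in Wnt1 culture and 101822 and 89032 in control culture, against 3321 and 4457 in stalk. It rose by 4.89 and 4.61 on this brightest probe set. With its probe sets averaged the values were 2.48 and 2.88 (limma, adjusted p = 0.0031 and 0.0021), so both calls were kept. Over 24 alternative settings the lowest values were 1.25 in Wnt1 culture, where 1 setting ended the call, and 2.53 in control culture, where none did. The matrix genes Tnc and Postn rose by 2.49 and 1.79 in Wnt1 culture (adjusted p = 0.0094 and 0.016) and by 2.63 and 2.001 in control culture (adjusted p = 0.0066 and 0.00875). The cell cycle inhibitor Cdkn2b and the secreted protein Ccn2 rose by 3.63 and 3.83 in Wnt1 culture (adjusted p = 0.0039 and 0.0078) and by 2.79 and 3.38 in control culture (adjusted p = 0.0093 and 0.0095). Between the cultures Cdkn2b differed by 0.84 and Ccn2 by 0.46 (limma, adjusted p = 0.75 and 0.93), so neither passed there. Tnc and Cdkn2b read below 96.4 on all 4 fresh arrays and entered the test through the cultured ones. Fn1 did not pass in either culture. Tgfbi, which is also a target by name, fell in both cultures. Leaving out a stalk array left 2 or 3 of the targets past the threshold in control culture and 3 in Wnt1 culture, and the signal floor left 3 in control culture and 2 in Wnt1 culture. With arrays centred on their medians 6 rose in Wnt1 culture and 4 in control culture.

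**Figure D4:**
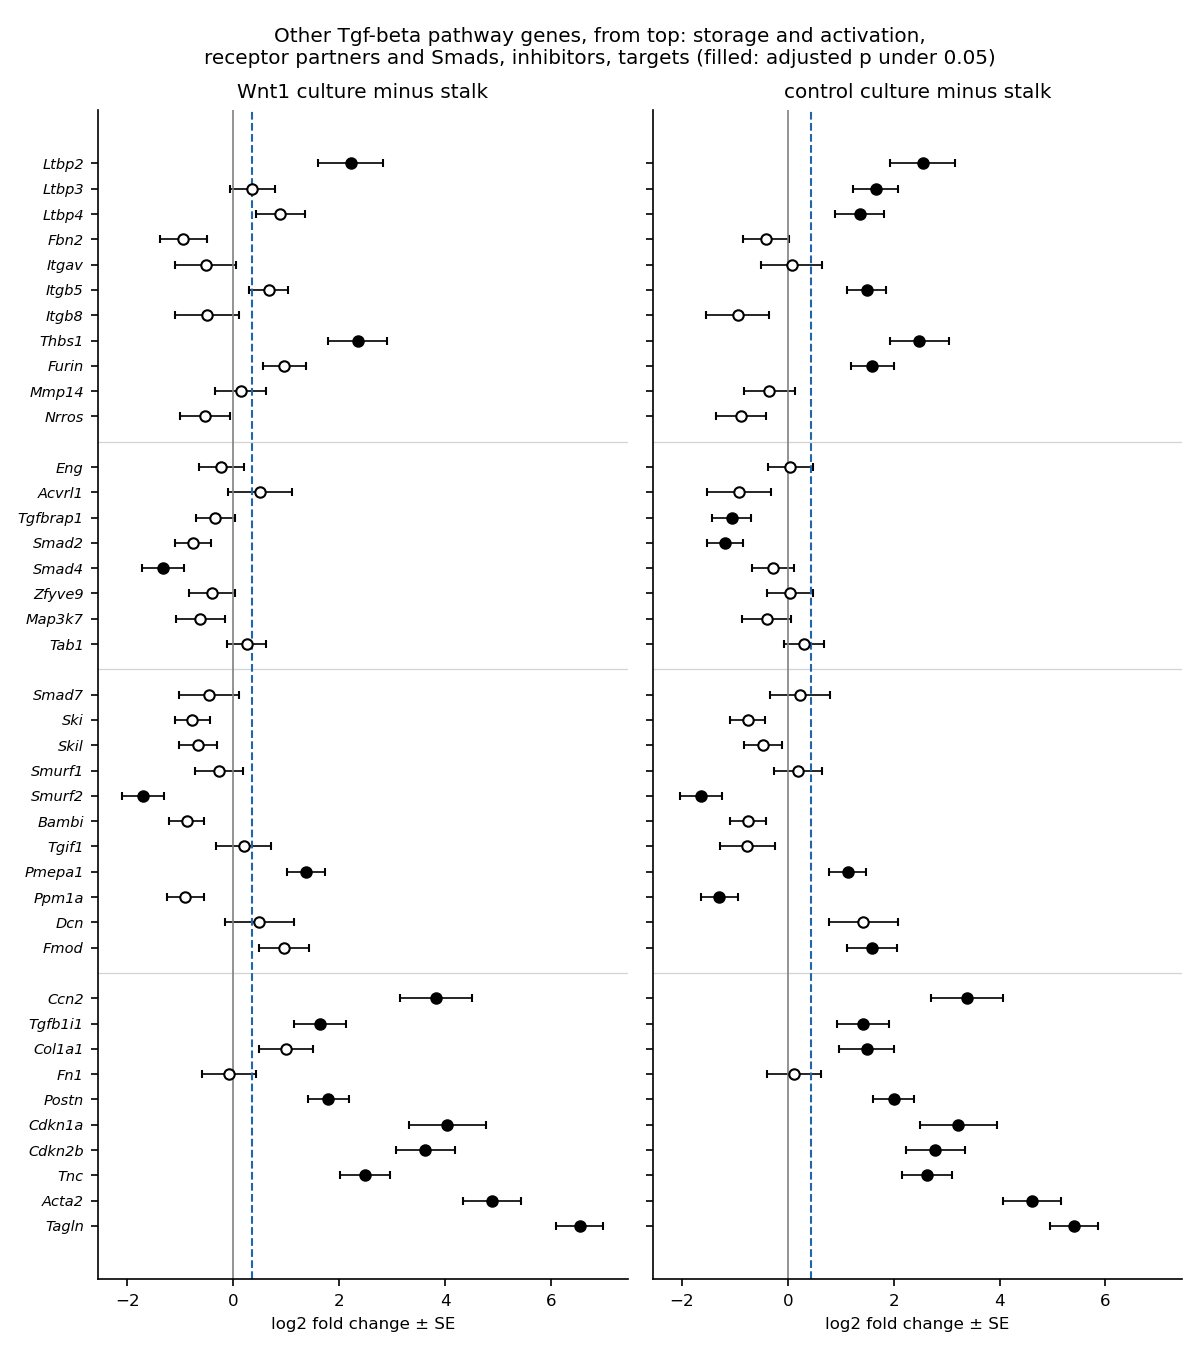
Log2 fold change with standard error (horizontal axis) of the 40 other pathway genes tested, in Wnt1 culture (left) and control culture (right) against stalk, grouped by role from storage and activation at the top to targets at the bottom. Filled points passed the test and the dashed line is the median of all genes. Targets other than Fn1 lie at the right, with Tagln at 6.54 and 5.40, Fn1 lies at -0.09 and 0.12, and receptor partners and Smads near or below 0.

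Marker genes of several cell types moved in the same comparisons. Over all genes 17.1% rose and 9.26% fell in control culture against stalk, and 9.35% and 6.88% in Wnt1 culture against stalk. Below 0 were 48.7% of all genes in tip against stalk and 55.5% in Wnt1 culture against control culture. The 6 smooth muscle markers, of which Acta2 and Tagln are also in the target list, had a summed signal of 148239 to 176504 in Wnt1 culture, 108513 to 125035 in control culture, 1227 to 4133 in tip and 4722 to 6059 in stalk. Such sums are weighted towards their brightest markers, here Acta2, with 122878 and 107622 in Wnt1 culture and 101822 and 89032 in control culture. Of the 6 markers 4 rose in each culture, while Myocd was at -0.06 in Wnt1 culture and -0.41 in control culture against stalk. All 6 were below 0 in tip against stalk (median -0.99) and all 6 were above 0 in Wnt1 culture against control culture (median 0.56). The 9 measured endothelial markers summed to 1424 to 2912 in Wnt1 culture, 3215 to 3489 in control culture, 6401 to 9220 in tip and 10283 to 12508 in stalk, and 5 of 9 fell in each culture. Endothelium is a known site of Acvrl1 and Eng. The 9 mesenchyme markers summed to 24202 to 41919 in Wnt1 culture, 35171 to 55519 in control culture, 40004 to 49999 in tip and 48176 to 56458 in stalk, with 4 of 9 falling in Wnt1 culture, and 5 falling and 1 rising in control culture. Macrophage markers summed to 13040 to 13080 in Wnt1 culture, 13606 to 25077 in control culture, 1652 to 5367 in tip and 4759 to 5272 in stalk, and 5 and 6 of 11 rose in the cultures. Some listed markers read far below their array's median, as Tek did in control culture at 11.0 and 4.61, where the medians were 298 and 209. The part of any of these lists in the results on the 9 genes was not tested.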

How the data were processed

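Each probe set has 1 deposited intensity per array, on a linear scale. The submitters' processing notes name MAS5 and Affymetrix Expression Console as what the authors used, and no version is given in the sources used here. RNA was amplified with a 2-cycle kit and labelled with biotin, per the labels' protocols. The values show a 2% trimmed mean of 500 on every array, so the median was free to differ. Such scaling can raise the background on arrays with little bright signal.

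Of 45101 probe sets, 64 controls were left out. The platform annotation gives 1 symbol to 34945, several to 932 and none to 9160. A probe set with 1 symbol was kept if 2 or more arrays exceeded 96.4, the 40th percentile over the whole table, and the brightest kept probe set by mean stood for its gene. Of 16115 genes, 15992 matched RefSeq by gene identifier. Values were tested as log2(value + 44), 44 being near their 25th percentile, which understates changes of dim genes. All 8 arrays entered 1 fit in limma 3.58.1 (R 4.3.3, lmFit, then eBayes with trend, 4 residual degrees of freedom), with 4 two-sided comparisons, Benjamini-Hochberg adjustment over all genes and a threshold of 0.05. The probe-set values come from the same fit over 29349 probe sets. A permutation test of 2 arrays against 2 cannot give a p below 0.33, so none was run.

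The number of arrays limits the precision. The members, the lists and the tests were chosen with earlier results of these data known. The rule for named genes takes all 9 members, and from each role of the other list up to 4 genes past the threshold by smallest p, or the 2 with the smallest p where none passed, and for each ligand the 3 genes of most similar pattern. Of the 44 listed genes, 40 are reported and the others are not analysed here. The replicate numbers were not taken to pair the arrays: deviations of equally numbered arrays correlated at -0.08 (tip and stalk), 0.30 (Wnt1 and control culture), 0.14 (control culture and stalk) and 0.15 (Wnt1 culture and stalk), with 2 pairs each. Of the marker lists for 10 cell types, those of pericytes, mesothelium, megakaryocytes, erythroid cells, epithelium and nerve are given among the closing observations. Python 3.11.15 and matplotlib 3.10.9 made the figures.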

Additional observations from a re-analysis of the deposited data

How the results depend on the processing

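The depth of arrays is limited by signal over background, and dim genes such as Tgfb1 have values near it. In each comparison 24 alternatives were run, 1 of them (without both culture arrays numbered 1) added after the data were seen. The number of genes past the threshold in tip against stalk was 0, and 1 with the signal floor. In Wnt1 culture against control culture it was 0, but 1 with a pseudocount of 16, 1 with probe sets of a gene averaged, 59 with the floor, 755 without both culture arrays numbered 1, and 0 to 61 with 1 array left out. In control culture against stalk it was 4251, but 722 with the floor (298 higher, 424 lower), 1247 with quantile normalization (555 and 692, against 2759 and 1492), 6498 at an adjusted p under 0.10, 7130 without both culture arrays numbered 1, and 61 to 6359 with 1 array left out (61 and 113 without a stalk array). For Wnt1 culture against stalk it was 2615, but 332 with the floor, 681 with quantile normalization (309 and 372, against 1506 and 1109), 4981 at 0.10, 5485 without both culture arrays numbered 1, and 65 to 5567 with 1 array left out. Median centring moved the median of all genes in control culture against stalk to -0.74, with 341 higher and 4072 lower, and in Wnt1 culture against stalk to -0.64, with 238 higher and 2821 lower. It left 6 and 4 of the 9 members past the threshold, all lower, with Tgfb2 in place of Tgfb1 in control culture. With the floor Wnt1 culture had 91 higher and 241 lower genes.

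The replicate block changed the number of genes to 1 in Wnt1 culture against control culture and to 3957 in Wnt1 culture against stalk. A lone array left in a group is assumed to vary like the other groups, so counts from such a fit do not measure that group's scatter. Without both culture arrays numbered 1 the spread came from the fresh arrays alone. Members past the threshold in control culture against stalk were 1 with the floor, 2 with quantile normalization, 2 with the mean of probe sets, and 0 to 8 with 1 array left out. For Wnt1 culture against stalk they were 2 with the floor, 2 with quantile normalization and 2 to 6 with 1 array left out. Between the cultures they were 1 without both culture arrays numbered 1 and 0 to 1 with 1 array left out.

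Some values changed sign, among them the called Tgfbrap1 and Pmepa1, and the cause was not tested. Leaving out 1 array gave ranges in tip against stalk of -0.040 to 0.95 for Tgfb3, -0.50 to 0.19 for Tgfbr2, -0.34 to 0.078 for Smad3 and -0.37 to 0.24 for Ltbp1. Between the cultures the ranges were -0.62 to 0.70 for Tgfb2, -0.61 to 3.93 for Tgfb3, -0.61 to 0.59 for Tgfbr1, -0.40 to 0.48 for Smad3, -0.36 to 0.88 for Ltbp1 and -2.08 to 0.22 for Dcn. In control culture against stalk they were -2.49 to 2.04 for Tgfb3 and -0.99 to 0.26 for Ltbp1, and in Wnt1 culture against stalk -0.28 to 0.069 for Ltbp1. The mean of probe sets gave 0.24 for Smad3 in tip against stalk, -0.77 for Ltbp1 in Wnt1 culture against control culture, 1.15 for Ltbp1 and 0.059 for Tgfbrap1 in control culture against stalk, and 0.0018 for Tgfbr2 and 0.38 for Ltbp1 in Wnt1 culture against stalk. Quantile normalization gave -0.050 for Tgfb2 and 0.14 for Tgfbr1 in Wnt1 culture against control culture and 0.21 for Ltbp1 in Wnt1 culture against stalk. Median centring gave 0.19 for Tgfbr1 in Wnt1 culture against control culture and -0.055 for Pmepa1 in control culture against stalk. The floor gave 0.72 for Tgfb3 in control culture against stalk. Without both culture arrays numbered 1, Tgfb2, Smad3 and Ltbp1 in Wnt1 culture against control culture were -0.37, -0.16 and -0.54, and Tgfb3 and Ltbp1 in control culture against stalk were 2.04 and 0.26. Without probe sets named _x_at or _s_at, Acta2 was 0.90 in tip against stalk and Tgfbrap1 was 1.18 in control culture against stalk.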

Other observations

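Marker lists of further cell types were measured on the same arrays. Of all genes tested, 17.1% rose and 9.26% fell in control culture against stalk, and 9.35% and 6.88% in Wnt1 culture against stalk. In tip against stalk 48.7% were below 0. Counts of 1 or 2 markers in a list are no result about a cell type. The 8 epithelial markers summed to 4390 to 12454 in Wnt1 culture, 4881 to 5430 in control culture, 1631 to 2657 in tip and 1507 to 1733 in stalk. Of them 1 rose in Wnt1 culture and 2 in control culture against stalk (limma, adjusted p under 0.05). The 5 measured erythroid markers summed to 9071 to 21475 in Wnt1 culture, 6146 to 14208 in control culture, 38175 to 40186 in tip and 38520 to 66855 in stalk, and 2 and 4 of 5 fell in the cultures. The 7 mesothelial markers had a median log2 fold change of 0.60 in tip against stalk, with 6 of 7 above 0 and 0 past the threshold, and 2 of 7, Upk1b and Krt19, rose in each culture against stalk. The 5 pericyte markers had medians of -1.43 in Wnt1 culture, with 2 falling, and 0.02 in control culture, with 0 past the threshold. Of 5 megakaryocyte and platelet markers 1 fell in each culture, and of 3 measured neural markers 1 rose in each.

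The gene whose pattern over the 8 arrays was most similar to that of Tgfbi was Notch4, a receptor of endothelium, with a root mean square difference of 0.10 on the log2 scale where Tgfbi itself had 1.10. For Smad3 it was Fam168b, at 0.08, followed by Yap1 at 0.10. These genes were named after their values were seen.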
